A study of Arabis alpina with 23 samples.

Results

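The Dof zinc finger genes of the perennial alpine rock-cress Arabis alpina were followed in young axillary buds (AB) and in the shoot apical meristem (SAM). They were taken as every gene of the expression table whose description names a Dof zinc finger, a Dof-type zinc finger, a cycling Dof factor or a Dof domain, and this gave 24 genes of 34220. The plants were of the Pajares accession, with no transgene or mutation named in the labels, grown with 24 °C days and 18 °C nights in long days. Stage 1 was 4-week-old plants, stage 2 was 8-week-old plants, and stages 3 and 4 were plants after 4 and 7 weeks at 4 °C in 16 h of light. The 23 RNA-seq libraries comprised 3 biological replicates of each tissue and stage, except for AB at stage 1 with 2, and each replicate pooled 120 to 150 buds or apices. A bud was collected with a single leaf primordium and a SAM with 1 leaf primordium, so both samples hold leaf tissue as well as meristem. Library totals ranged from 12247645 to 26218502 counted reads.

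Dof proteins are transcription factors found in green plants that bind short DNA elements through a single zinc finger. In Arabidopsis thaliana the cycling Dof factors (CDFs) are produced under control of the circadian clock, repress the flowering genes CONSTANS and FT in the morning, and are removed later in the day by the light-sensing ubiquitin ligase subunit FKF1 together with GIGANTEA. Other Dof proteins of that species act in vascular development, seed germination, guard cells and responses to light and hormones.

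The deposited annotation gave an Arabidopsis locus for 4 of the 24 genes. Aa_G13510 (chromosome 8, 46814438 to 46817023, minus strand of the V5 assembly) carried the locus of CDF1, Aa_G169330 (chromosome 6, 30548598 to 30550264, plus strand) that of CDF2, and Aa_G347580 (chromosome 2, 24585137 to 24586771, minus strand) that of CDF5. Aa_G254970 (chromosome 1, 23869145 to 23870370, plus strand) had the CDF5 locus with a suffix that the annotation also gives to other relatives of a gene, so it is not called CDF5 here. The other 20 genes had a family description only, and no individual name or role is given to them. Of all 24 genes, 13 had a single exon and 11 had 2 exons. Their annotated coding lengths ran from 522 to 1266 bases with a median of 924. Chromosome 8 held 6 of them, between positions 41414817 and 49328660, and the other 18 were spread over the remaining chromosomes. In the annotation 3 of the genes overlapped the span of another gene model, but no exon of any Dof gene overlapped an exon of another gene.

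Per unit of length, the family was led by 5 genes. Over the 8 groups the mean level was 54.4 TPM (read counts scaled by gene length and library total, the authors' values) for Aa_G109750, 51.2 TPM for Aa_G277430, 45.3 TPM for Aa_G234750, 42.6 TPM for Aa_G180830 and 29.5 TPM for Aa_G227500. The CDF2 homologue Aa_G169330 had a mean of 11.8 TPM, the CDF5 homologue Aa_G347580 7.72 TPM, the CDF1 homologue Aa_G13510 1.10 TPM and Aa_G254970 0.557 TPM. Summed over the 24 genes, the mean level per group lay between 306.3 ± 13.8 TPM (SD, n = 3) in AB at stage 4 and 381.7 ± 33.0 TPM (SD, n = 3) in SAM at stage 4. The 5 leading genes had moderate ranges, with a highest to lowest group mean (in CPM, counts scaled to library size) of 1.73 in Aa_G227500 to 3.24 in Aa_G180830, whereas this ratio was 9.04 for Aa_G347580 and 10.1 for Aa_G166300. Aa_G294420 and Aa_G297810 had 10 and 5 counts in total over the 23 libraries and were not tested.

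The first question was how buds differ from the apex at each stage, tested with edgeR's quasi-likelihood test and Benjamini-Hochberg adjustment over 21414 genes, with calls at an adjusted p under 0.05. At stage 1, 13 of the 22 tested Dof genes were called (6 higher and 7 lower in AB), where 32.8% of all tested genes were called, 18.2% higher and 14.6% lower. At stage 2 the numbers were again 13 called, 6 higher and 7 lower, with 37.4% of all genes called, 19.9% higher and 17.6% lower. At stage 3 they were 15 called, 8 higher and 7 lower, with 44.2% of all genes called, 22.1% in each direction. At stage 4 they were 9 called, 1 higher and 8 lower, with 3.47% of all genes called, 1.36% higher and 2.12% lower. That stage 4 count was 4 without AB replicate 2 and 5 without SAM replicate 2 or 3. The median size of the log2 difference among the tested Dof genes was 0.74, 0.75, 0.91 and 0.57 at stages 1 to 4, beside 0.27, 0.27, 0.31 and 0.13 over all tested genes. 1 of the 22 genes, Aa_G13510, reached the count filter in 8 AB libraries and in 0 SAM libraries, so its presence in the tested set came through the tissue where it was high. Since whole buds and apices were sequenced, fewer cells of a type and less RNA per cell cannot be told apart in any of these differences.

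**Figure D1:**
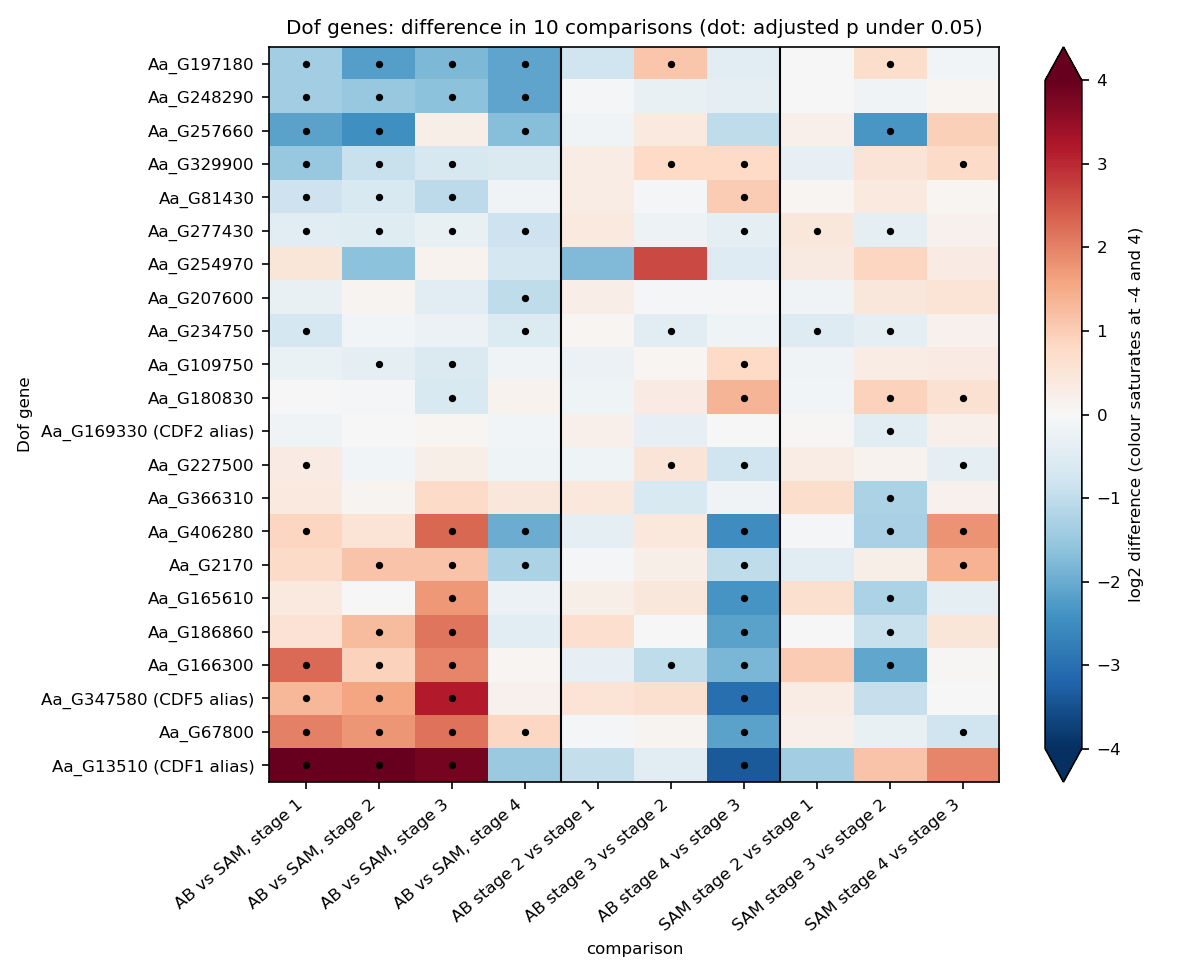
Log2 differences (colour) of the 22 tested Dof genes (rows, ordered by their difference over the 4 stages) in 10 comparisons (columns), with a dot where the adjusted p was under 0.05. Red in the first 4 columns is higher in AB; 8 genes are called higher in AB at stage 3 and 1 at stage 4.

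Among the cycling Dof homologues, the CDF1 homologue was read almost only in buds before and early in the cold. Aa_G13510 measured 2.39 and 4.94 CPM in the AB libraries of stage 1, 2.06, 1.75 and 1.81 at stage 2, 1.52, 1.47 and 1.20 at stage 3 and 0.0627, 0.133 and 0.191 at stage 4. In SAM it measured 0.0553, 0.0559 and 0.217 CPM at stage 1, 0.0533, 0.0545 and 0 at stage 2, 0, 0.0665 and 0.248 at stage 3 and 0.502, 0.384 and 0.221 at stage 4. Every AB library of stages 1 to 3 was above every SAM library, and at stage 4 every AB library was below every SAM library. Summed over libraries the gene had 104 counts in AB and 6 in SAM at stage 1, and 62 and 4 at stage 3. It was called higher in AB at stages 1 to 3, but these calls are given as a description, since the gene was tested through its AB counts and the SAM counts are too few to fix a fold change. At stage 2 the gene had 81 counts in AB and 2 in SAM, a ratio of 50.3 after normalisation with a 95% exact counting interval of 13.5 to 422, which covers counting error only. At stage 4 it had 6 counts in AB and 24 in SAM, and the difference was not called (adjusted p = 0.259).

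The CDF5 homologue showed its largest bud excess after 4 weeks of cold. Aa_G347580 measured 2.96 and 18.0 CPM in AB at stage 1, 18.4, 16.0 and 11.5 at stage 2, 30.3, 22.8 and 18.9 at stage 3 and 3.39, 2.85 and 2.67 at stage 4. In SAM it measured 3.37, 3.41 and 5.59 CPM at stage 1, 5.22, 4.52 and 5.56 at stage 2, 1.83, 4.39 and 1.74 at stage 3 and 2.24, 2.47 and 3.25 at stage 4. AB and SAM did not overlap at stages 2 and 3 but did at stages 1 and 4. AB exceeded SAM by 1.58 ± 0.44 (adjusted p = 0.00916) on the log2 scale at stage 2 and by 3.17 ± 0.48 (adjusted p = 6.08e-05) at stage 3. At stage 1 the fitted excess was 1.34 ± 0.49 (adjusted p = 0.0463), but the 2 AB libraries stood 6.09-fold apart, and without AB replicate 2 the difference was -0.49 with an adjusted p of 0.507. The stage 1 call was also lost without SAM replicate 1 or 2, with the replicate block, without the filter on low counts, on TPM and with the compared libraries alone (adjusted p up to 0.545).

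For the CDF2 homologue no difference between the tissues was called. Aa_G169330 stayed between 9.84 and 18.9 CPM in all 23 libraries. Its AB minus SAM difference was -0.15 ± 0.15 on the log2 scale at stage 1, 0.00 ± 0.13 at stage 2, 0.09 ± 0.13 at stage 3 and -0.10 ± 0.13 at stage 4, none of them called. Its single call among the 14 comparisons was a fall in SAM from stage 2 to 3 by 0.41 ± 0.13 (adjusted p = 0.0283), where the libraries overlapped. That call was lost when replicate 1 or 3 of SAM stage 2 or replicate 1 of SAM stage 3 was left out and with the compared libraries alone (adjusted p up to 0.174). Aa_G254970 had at most 1.32 CPM in any library and 232 counts in all, and it passed in none of the 14 comparisons of the main fit. In AB it had 6 counts at stage 2 and 40 at stage 3, without overlap of the libraries in CPM. This rise passed in 5 alternatives, among them TPM and the compared libraries alone.

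Of the genes without an individual name, Aa_G67800 (chromosome 6, 451204 to 452049, minus strand) was the member higher in AB at all 4 stages. It measured 29.4 and 29.4 CPM in AB at stage 1, 31.4, 28.9 and 26.0 at stage 2, 32.3, 30.9 and 29.3 at stage 3 and 7.40, 7.24 and 6.24 at stage 4. In SAM it measured 8.18, 7.78 and 5.92 CPM at stage 1, 9.86, 6.27 and 9.06 at stage 2, 6.61, 4.92 and 9.27 at stage 3 and 4.25, 3.51 and 4.03 at stage 4. The AB libraries lay above the SAM libraries without overlap at each stage. The excess was 2.01 ± 0.19 (adjusted p = 6.48e-08) on the log2 scale at stage 1, 1.78 ± 0.17 (adjusted p = 9.68e-08) at stage 2, 2.17 ± 0.18 (adjusted p = 1.27e-08) at stage 3 and 0.82 ± 0.19 (adjusted p = 0.0161) at stage 4. The stage 4 call was lost without AB replicate 1 or 2 or SAM replicate 2 or 3 (adjusted p up to 0.0825).

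Aa_G165610 (chromosome 8, 45802300 to 45803160, plus strand) parted between the tissues at stage 3. It measured 26.0, 27.2 and 24.0 CPM in AB and 27.2, 22.5 and 28.1 in SAM at stage 2. At stage 3 it measured 39.0, 35.0 and 32.9 CPM in AB and 9.22, 12.4 and 10.5 in SAM, with no overlap. The stage 3 difference was 1.73 ± 0.22 (adjusted p = 5.38e-06) on the log2 scale, against -0.01 ± 0.21 at stage 2 and -0.23 ± 0.23 at stage 4, neither of which was called.

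Aa_G186860 (chromosome 7, 38116359 to 38117741, minus strand) measured 6.71, 7.33 and 7.68 CPM in AB and 3.30, 3.43 and 2.36 in SAM at stage 2. At stage 3 the values were 8.06, 8.60 and 5.15 in AB and 1.56, 2 and 1.32 in SAM. All AB libraries of both stages exceeded all SAM libraries of the same stage. The excess was 1.25 ± 0.29 (adjusted p = 0.00179) on the log2 scale at stage 2 and 2.15 ± 0.31 (adjusted p = 1.58e-05) at stage 3, and at stage 4 the difference of -0.47 ± 0.32 was not called.

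Aa_G166300 (chromosome 4, 5327281 to 5327817, minus strand) was higher in AB than in SAM at stages 1 to 3 and low in both tissues at stage 4. It measured 2.88 and 3.46 CPM in AB and 0.608, 0.336 and 1.03 in SAM at stage 1. At stage 2 it measured 2.54, 2.31 and 2.79 in AB and 1.28, 1.09 and 1.63 in SAM. At stage 3 it measured 1.19, 1.13 and 1.41 in AB and 0.167, 0.532 and 0.248 in SAM. The tissues did not overlap at these stages, every SAM library of stage 2 lay above those of stage 1, and at stage 4 no library exceeded 0.509 CPM. The bud excess was 2.25 ± 0.41 (adjusted p = 0.000222) on the log2 scale at stage 1 and 1.97 ± 0.45 (adjusted p = 0.00149) at stage 3. Its stage 2 excess of 0.93 ± 0.36 (adjusted p = 0.0472) was lost without any AB replicate of that stage or SAM replicate 1 or 2, without the filter on low counts and on TPM with a pseudocount of 0.1 (adjusted p up to 0.140).

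A pair of genes crossed over, higher in AB earlier and lower in AB at stage 4. Aa_G406280 (chromosome 8, 47181840 to 47183402, minus strand) measured 3.57, 4.34 and 4.87 CPM in AB and 0.667, 0.732 and 1.24 in SAM at stage 3. At stage 4 it measured 1.00, 0.398 and 0.828 in AB and 2.82, 3.35 and 2.76 in SAM. There was no overlap at either stage, and the order of the tissues was opposite. The difference was 2.30 ± 0.32 (adjusted p = 1.01e-05) on the log2 scale at stage 3 and -1.98 ± 0.32 (adjusted p = 0.00104) at stage 4. Its stage 1 excess of 0.87 ± 0.31 (adjusted p = 0.0381) was lost without any single AB library or SAM replicate 1 or 2 of that stage, on TPM with a pseudocount of 0.1 and with the compared libraries alone (adjusted p up to 0.170). Aa_G2170 (chromosome 5, 27387463 to 27388389, plus strand) measured 5.81, 2.07 and 4.45 CPM in AB and 1.78, 2.13 and 1.65 in SAM at stage 3, with overlap, and 2.70, 1.59 and 1.85 and 3.94, 4.28 and 6.56 at stage 4, without. Its difference was 1.14 ± 0.36 (adjusted p = 0.0135) at stage 3 and -1.26 ± 0.35 (adjusted p = 0.0479) at stage 4. Its stage 2 excess of 1.14 ± 0.36 (adjusted p = 0.0164) was lost without AB replicate 1 or SAM replicate 3 (adjusted p up to 0.0867). The stage 3 call was lost without AB stage 3 replicate 1 (adjusted p = 0.104) and the stage 4 call without any of the 6 libraries, on TPM and without the filter on low counts (adjusted p up to 0.219).

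**Figure D2:**
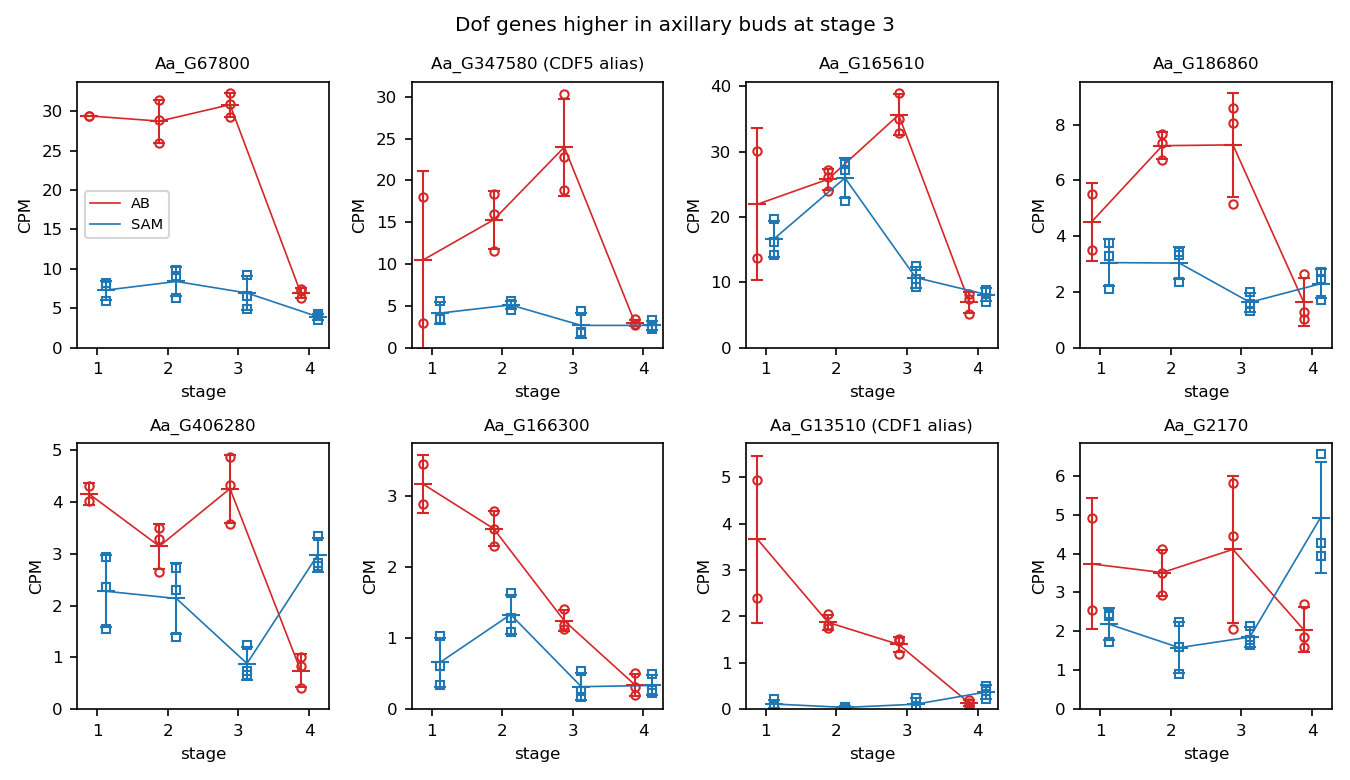
CPM (linear axes from 0) of the 8 Dof genes called higher in AB at stage 3, by stage, with 1 open symbol per library (AB red circles, SAM blue squares), and lines and bars for mean and SD. Aa_G67800 lies between 26.0 and 32.3 CPM in AB at stages 1 to 3 and between 6.24 and 7.40 at stage 4.

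The members with lower levels in AB were led by Aa_G257660, Aa_G197180 and Aa_G248290. Aa_G257660 (chromosome 1, 4421526 to 4422806, minus strand) measured 0.915 and 1.06 CPM in AB and 3.31, 5.37 and 4.45 in SAM at stage 1. At stage 2 the values were 1.10, 1.19 and 0.419 in AB and 5.22, 5.67 and 4.17 in SAM. Every SAM library of these stages was above every AB library of the same stage, and the AB minus SAM difference was -2.14 ± 0.47 (adjusted p = 0.00135) on the log2 scale at stage 1 and -2.47 ± 0.41 (adjusted p = 6.88e-05) at stage 2. At stage 3 the SAM libraries were at 0.834, 0.865 and 1.32 CPM and overlapped AB at 0.462, 1.53 and 1.55, with a difference of 0.25 ± 0.44 that was not called.

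Aa_G197180 (chromosome 4, 43450936 to 43452187, plus strand) was lower in AB at all 4 stages. It measured 1.65, 1.89 and 1.12 CPM in AB and 6.66, 8.06 and 6.95 in SAM at stage 2. At stage 4 it measured 2.82, 2.46 and 2.17 in AB and 11.5, 8.73 and 12.1 in SAM. At no stage did the tissues overlap, and the differences were -1.39 ± 0.30 (adjusted p = 0.00126) at stage 1, -2.22 ± 0.28 (adjusted p = 3.39e-06) at stage 2, -1.80 ± 0.26 (adjusted p = 1.26e-05) at stage 3 and -2.11 ± 0.26 (adjusted p = 8.77e-05) at stage 4 on the log2 scale.

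Aa_G248290 (chromosome 4, 29585353 to 29586770, plus strand) was lower in AB at all 4 stages. It measured 2.60 and 3.88 CPM in AB and 8.07, 10.5 and 7.27 in SAM at stage 1. At stage 4 it measured 2.38, 1.99 and 1.40 in AB and 7.87, 7.96 and 9.04 in SAM. AB lay below SAM in every library at each stage, with differences of -1.40 ± 0.24 (adjusted p = 0.000105), -1.51 ± 0.21 (adjusted p = 8.99e-06), -1.65 ± 0.22 (adjusted p = 4.30e-06) and -2.10 ± 0.22 (adjusted p = 9.85e-06) at stages 1 to 4. None of its steps between successive stages was called in either tissue, and its tissue by stage interaction had an adjusted p of 0.252.

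The abundant Aa_G277430 (chromosome 2, 81313 to 82308, minus strand) was also lower in AB at all 4 stages, by a smaller amount. It measured 36.2, 31.9 and 32.6 CPM in AB and 58.7, 58 and 62.6 in SAM at stage 4, without overlap. Its differences were -0.43 ± 0.10, -0.48 ± 0.09, -0.31 ± 0.09 and -0.83 ± 0.09 at stages 1 to 4. The stage 1 call was lost without AB replicate 1 (adjusted p = 0.101), and the stage 3 call without AB replicate 1 or SAM replicate 3, on TPM and with the compared libraries alone (adjusted p up to 0.131).

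Aa_G329900 (chromosome 1, 26404404 to 26405520, minus strand) measured 2.96 and 2.82 CPM in AB and 6.96, 8.89 and 8.96 in SAM at stage 1. At stage 4 it measured 10.5, 10.8 and 10.9 in AB and 15.8, 16.0 and 16.8 in SAM. The tissues did not overlap at either stage and both were higher at stage 4. The difference was -1.51 ± 0.26 (adjusted p = 9.85e-05) at stage 1 and -0.89 ± 0.22 (adjusted p = 0.00295) at stage 2, and -0.59 ± 0.19 (adjusted p = 0.0999) at stage 4 was not called. The stage 3 difference of -0.63 ± 0.21 (adjusted p = 0.0178) was lost without AB replicate 1 or 2 or SAM replicate 3 and with the compared libraries alone (adjusted p up to 0.137).

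Of the remaining genes lower in AB, Aa_G81430 differed by -0.83 ± 0.23 (adjusted p = 0.00794) at stage 1 and -1.06 ± 0.20 (adjusted p = 0.000198) at stage 3. The stage 1 call was lost without AB replicate 2 (adjusted p = 0.0694). Its stage 2 difference of -0.61 ± 0.20 was lost without AB replicate 2 or 3 or SAM replicate 2 and with the compared libraries alone (adjusted p up to 0.141). Aa_G109750 differed by -0.58 ± 0.12 (adjusted p = 0.000655) at stage 3, and by -0.36 ± 0.12 at stage 2, a call lost without AB replicate 2 or 3 or SAM replicate 2 or 3 (adjusted p up to 0.120). Aa_G180830 was lower in AB at stage 3 by a difference of -0.62 ± 0.16 (adjusted p = 0.00371). Aa_G234750, the third most abundant, was lower in AB at stage 1, at -0.71 ± 0.14 (adjusted p = 0.000605), where AB held 36.0 and 31.4 CPM and SAM 54.4, 62.6 and 48.5. At stage 4 its difference of -0.55 ± 0.13 was lost without AB replicate 2 or 3 or SAM replicate 3 and with the compared libraries alone (adjusted p up to 0.137). Aa_G207600 was called at stage 4 alone among the stages, at -1.03 ± 0.23 (adjusted p = 0.0139), which was lost without AB replicate 1 or 2 or SAM replicate 2 (adjusted p up to 0.0732). Aa_G257660 was lower in AB again at stage 4, at -1.71 ± 0.44, a call lost without AB replicate 2 or 3 or SAM replicate 2 or 3, on TPM and with the compared libraries and the replicate block (adjusted p up to 0.143). Aa_G227500 was higher in AB at stage 1 by 0.34 ± 0.13, a call lost without AB replicate 2 or SAM replicate 1 or 3, without the filter on low counts and with the compared libraries alone (adjusted p up to 0.336). Aa_G366310 was called at none of the 4 stages.

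**Figure D3:**
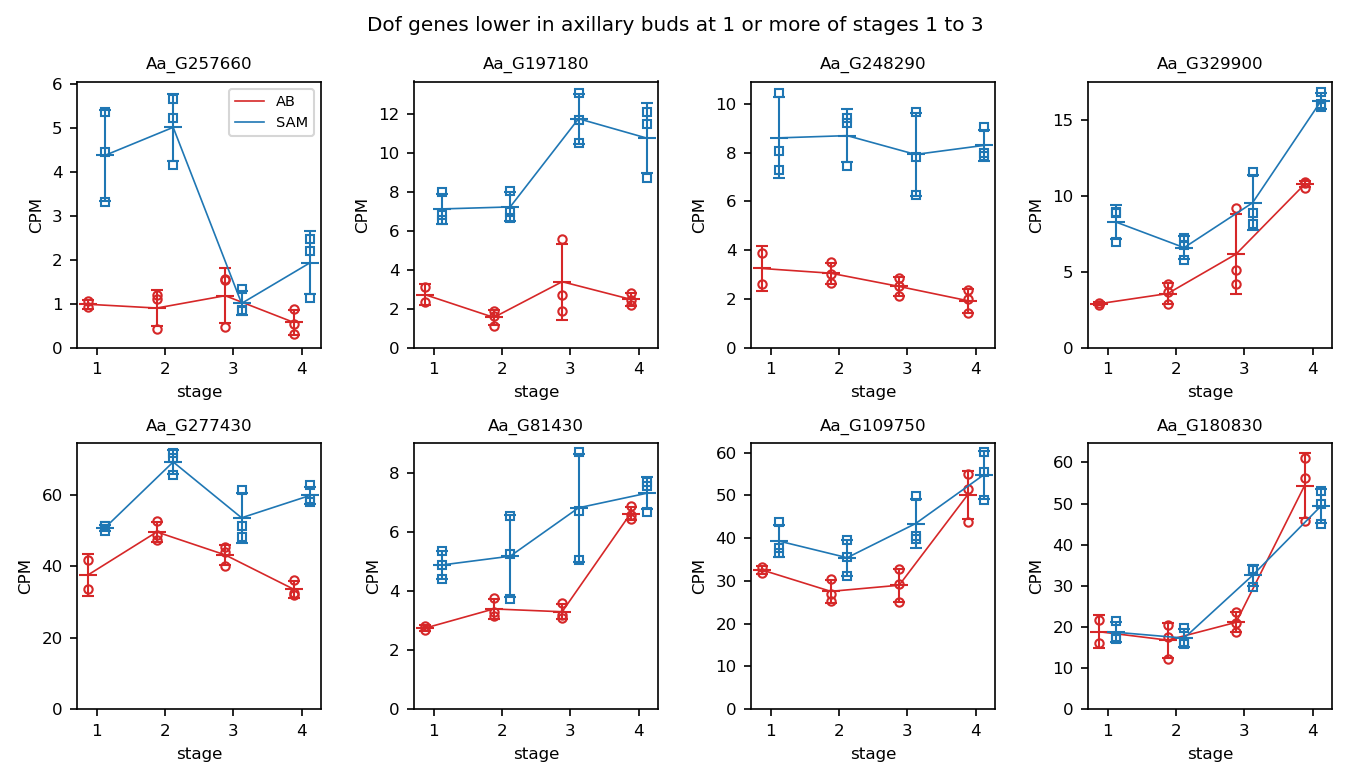
CPM (linear axes from 0) of 8 of the Dof genes called lower in AB at 1 or more of stages 1 to 3, by stage, with 1 open symbol per library (AB red circles, SAM blue squares), and lines and bars for mean and SD. Aa_G248290 runs between 6.25 and 10.5 CPM in SAM and between 1.40 and 3.88 in AB, while Aa_G180830 is higher at stage 4 than at stage 3 in both tissues.

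Averaged over the 4 stages, 17 of the 22 tested Dof genes were called (8 higher and 9 lower in AB), where 52.9% of all tested genes were called, 25.9% higher and 26.9% lower. The 8 higher and 9 lower genes were split alike by gene structure: 4 of the 11 tested genes with 1 exon and 4 of the 11 with 2 exons were higher, and 4 and 5 were lower. Leaving aside Aa_G13510, whose SAM counts cannot fix a fold change, the largest mean differences were -1.88 ± 0.14 for Aa_G197180, 1.69 ± 0.09 for Aa_G67800, -1.67 ± 0.11 for Aa_G248290, 1.57 ± 0.24 for Aa_G347580 and -1.52 ± 0.22 for Aa_G257660. The call of Aa_G2170, at 0.45 ± 0.18, was lost in 16 of the alternatives run for this comparison (adjusted p up to 0.169). Among them were the replicate block, TPM and the omission of replicate 1 of any of the 8 groups, replicate 2 of AB stage 2 or SAM stage 4, or replicate 3 of AB stage 3, SAM stage 2 or SAM stage 3. The call of Aa_G406280, at 0.43 ± 0.16, was lost without AB stage 1 replicate 2, AB stage 4 replicate 1 or SAM stage 3 replicate 1 (adjusted p up to 0.0726).

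The second question was how each tissue changed from stage to stage. Between 4 and 8 weeks of growth, edgeR called 0 of the 22 tested Dof genes in AB, with 4 at an unadjusted p under 0.05, where 1.16% of all tested genes were called, and DESeq2 called 1. Without AB stage 1 replicate 2 the edgeR count was 2. In SAM it called 2, where 7.57% of all genes were called, 4.50% higher and 3.06% lower. Aa_G277430 rose by 0.45 ± 0.09 (adjusted p = 0.00325) on the log2 scale and Aa_G234750 fell by 0.51 ± 0.12 (adjusted p = 0.0158). The SAM count was 4 without SAM stage 1 replicate 3, and 1 when replicate 1 or 2 of stage 1 or replicate 1 or 3 of stage 2 was left out. On TPM with a pseudocount of 1 it was 3, with 2 higher and 1 lower. The fall of Aa_G234750 was lost without each of those last 4 libraries (adjusted p up to 0.107).

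Over the first 4 weeks of cold, 11 of the 22 genes were called in SAM, 2 higher and 9 lower, where 24.3% of all genes were called, 11.9% higher and 12.3% lower. The count was 7 without SAM stage 2 replicate 1 or SAM stage 3 replicate 1. Aa_G257660 fell from 5.22, 5.67 and 4.17 CPM to 0.834, 0.865 and 1.32, with no overlap, a change of -2.33 ± 0.40 (adjusted p = 0.000300) on the log2 scale. Aa_G165610 changed by -1.28 ± 0.22 (adjusted p = 0.000354), Aa_G166300 by -2.06 ± 0.45 (adjusted p = 0.00211) and Aa_G406280 by -1.31 ± 0.33 (adjusted p = 0.00624). Aa_G277430 changed by -0.37 ± 0.09 (adjusted p = 0.00408). In the other direction Aa_G180830 (chromosome 8, 49327974 to 49328660, plus strand) rose from 15.8, 19.8 and 16.2 CPM to 29.6, 33.8 and 34.2, by 0.91 ± 0.16 (adjusted p = 0.000410). Aa_G366310 changed by -1.28 ± 0.38, a call lost when replicate 2 of stage 2 or replicate 1 or 3 of stage 3 was left out (adjusted p up to 0.111). The smaller calls of Aa_G186860 (-0.89), Aa_G197180 (0.70) and Aa_G234750 (-0.35) were each lost on leaving out single libraries, namely any of the 6 for Aa_G234750, any but SAM stage 2 replicate 3 for Aa_G186860, and any but SAM stage 3 replicate 1 for Aa_G197180, and also with the replicate block for Aa_G234750 and on TPM for Aa_G197180 (adjusted p up to 0.144, 0.118 and 0.130).

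In AB the same step called 5 genes, 3 higher and 2 lower, where 22.2% of all genes were called, 10.2% higher and 12% lower. The count was 2 without AB stage 2 replicate 3 or AB stage 3 replicate 3, and 3 without AB stage 3 replicate 1. On TPM the split was 4 higher and 2 lower with a pseudocount of 1, and 4 and 1 with 0.1. Aa_G227500 rose by 0.50 ± 0.11 (adjusted p = 0.00347) from 17.1, 15.5 and 15.8 to 25.2, 20.3 and 23 CPM, with no overlap. Aa_G197180 (1.12) and Aa_G329900 (0.78) rose with overlapping libraries, and both calls were lost without AB stage 2 replicate 3 or AB stage 3 replicate 3 and with the compared libraries alone (adjusted p up to 0.143 and 0.148). Aa_G234750 (-0.46) was lost without AB stage 2 replicate 2 or AB stage 3 replicate 1, and Aa_G166300 (-1.03) without any of the 6 libraries, without the filter on low counts and on TPM with a pseudocount of 0.1 (adjusted p up to 0.104 and 0.135).

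Between 4 and 7 weeks of cold, 14 of the 22 genes were called in AB, 4 higher and 10 lower, where 47.3% of all genes were called, 23% higher and 24.2% lower. Aa_G13510 was called lower, with 62 counts at stage 3 and 6 at stage 4. Aa_G347580 fell by 3.01 ± 0.47 (adjusted p = 7.11e-05) on the log2 scale. Next came Aa_G406280, which had a difference of -2.50 ± 0.32 (adjusted p = 3.39e-06), Aa_G165610, which fell by 2.36 ± 0.23 (adjusted p = 2.16e-07), Aa_G67800, which fell by 2.15 ± 0.18 (adjusted p = 1.17e-08), and Aa_G186860, which fell by 2.14 ± 0.31 (adjusted p = 1.28e-05). In each of these 6 genes all AB libraries of stage 4 lay below all AB libraries of stage 3. They were named as the largest called falls, and the share of all genes without overlap was not computed. Their separation is therefore a description only. Aa_G166300 fell by 1.84, Aa_G227500 by 0.79 and Aa_G277430 by 0.36. The fall of Aa_G2170, by 1.00 ± 0.35 (adjusted p = 0.0245), had overlapping libraries and was lost when replicate 1 or 3 of stage 3 or replicate 2 or 3 of stage 4 was left out, and with the compared libraries alone (adjusted p up to 0.170). The comparison uses the same 3 AB libraries of stage 3 as the tissue comparison at that stage, so the genes high in AB there and the genes that fell afterwards are not independent sets.

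The 4 genes that rose in AB over this step were Aa_G180830, Aa_G81430, Aa_G329900 and Aa_G109750. Aa_G180830 went from 21.0, 18.7 and 23.6 CPM to 45.7, 56.1 and 61.2, a rise of 1.36 ± 0.16 (adjusted p = 1.32e-06), and so had its highest group mean, 80.5 TPM, in AB at stage 4. Aa_G109750 went from 29.3, 24.9 and 32.7 to 43.8, 51.5 and 55 CPM, a rise of 0.79 ± 0.12 (adjusted p = 2.39e-05). Aa_G81430 went from 3.10, 3.20 and 3.60 to 6.58, 6.44 and 6.88 CPM, a rise of 1.01 ± 0.20 (adjusted p = 0.000276). All 3 were without overlap, as was Aa_G329900, which rose by 0.81 ± 0.20 (adjusted p = 0.00275). The lack of overlap is again a description only.

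In SAM the step from 4 to 7 weeks of cold called 6 genes, 4 higher and 2 lower, where 9.18% of all genes were called, 5.14% higher and 4.04% lower. The count was 3 without SAM stage 3 replicate 1 and 2 without SAM stage 4 replicate 3, and on TPM the split was 4 higher and 1 lower. Aa_G406280 rose from 0.667, 0.732 and 1.24 to 2.82, 3.35 and 2.76 CPM, by 1.78 ± 0.32 (adjusted p = 0.00126), with no overlap. Aa_G67800 fell by 0.80 ± 0.19 (adjusted p = 0.0104), a call lost without SAM stage 3 replicate 3 or SAM stage 4 replicate 2 and with the compared libraries and the replicate block (adjusted p up to 0.0714). Aa_G2170 (1.40), Aa_G329900 (0.77) and Aa_G180830 (0.60) rose, and each call was lost without SAM stage 3 replicate 1 or SAM stage 4 replicate 3 (adjusted p up to 0.0860, 0.0874 and 0.0866), that of Aa_G329900 also without SAM stage 3 replicate 2. Aa_G227500 fell by 0.39, a call lost in 9 alternatives, among them the omission of replicate 2 or 3 of either stage (adjusted p up to 0.166).

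**Figure D4:**
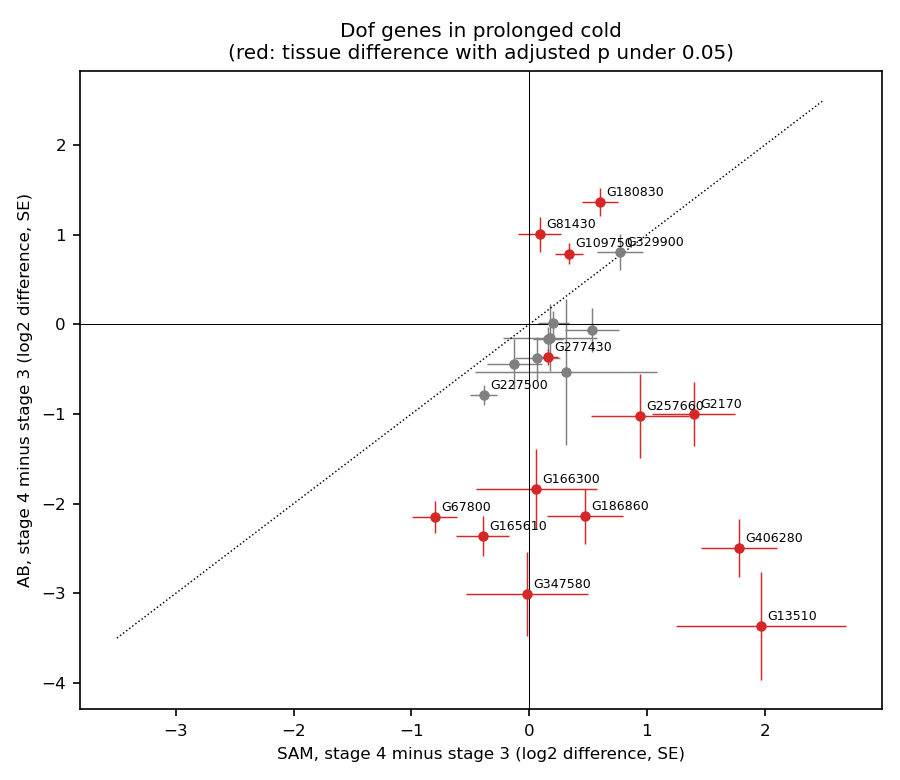
Log2 difference between 7 and 4 weeks of cold in SAM (horizontal axis) and in AB (vertical axis) for the 22 tested Dof genes, with bars for SE and a dotted line where both are equal; red marks genes whose step differed between the tissues. Aa_G406280 lies at 1.78 in SAM and -2.5 in AB.

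The third question was whether a step differed between the tissues, tested as the difference of the 2 steps in the same fit. From stage 2 to 3 the step differed in 3 of the 22 genes, all with a higher value in AB, where 4.66% of all genes were called and 2.66% called higher. Aa_G257660 differed by 2.72 ± 0.61 (adjusted p = 0.0129), with its fall in SAM and 0.38 ± 0.45 in AB. Aa_G165610 differed by 1.75 ± 0.30 (adjusted p = 0.00274). Aa_G406280 differed by 1.75 ± 0.43 (adjusted p = 0.0240), a call lost when replicate 3 of AB stage 2, replicate 1 or 2 of SAM stage 2 or replicate 1 of SAM stage 3 was left out (adjusted p up to 0.0755).

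From stage 3 to 4 the step differed in 13 genes, 3 higher and 10 lower in AB, where 29.8% of all genes were called, 14.7% higher and 15.1% lower. Aa_G13510 was among the 10, with 4 counts in SAM at stage 3, so its fold is not given weight here. Among the others the largest differences were -4.28 ± 0.46 (adjusted p = 2.22e-06) in Aa_G406280, -2.99 ± 0.70 (adjusted p = 0.00441) in Aa_G347580, -2.62 ± 0.45 (adjusted p = 0.000262) in Aa_G186860, -2.40 ± 0.50 (adjusted p = 0.00137) in Aa_G2170 and -1.96 ± 0.32 (adjusted p = 0.000215) in Aa_G165610. For Aa_G406280 the step was a called fall in AB and a called rise in SAM. Aa_G67800 fell in both tissues, and its step in AB was lower than that in SAM by a difference of -1.35 ± 0.26 (adjusted p = 0.000679). Aa_G81430 rose by 0.91 more in AB than in SAM and Aa_G180830 by 0.76 more. The first of these was lost without SAM stage 3 replicate 1 (adjusted p = 0.0588). Aa_G109750, at 0.45, was lost in 15 of the alternatives run for this comparison (adjusted p up to 0.193). Among them were DESeq2, DESeq2's size factors and the omission of any library of AB or SAM at stages 3 and 4 except AB stage 3 replicate 3, AB stage 4 replicate 1, SAM stage 3 replicate 1 and SAM stage 4 replicate 3. Aa_G277430 differed by -0.52 ± 0.13 (adjusted p = 0.00398). Aa_G166300, at -1.90, was lost when replicate 1 or 3 of AB stage 3, replicate 1 or 2 of AB stage 4, replicate 1 or 3 of SAM stage 3, or replicate 2 or 3 of SAM stage 4 was left out, and with the compared libraries alone (adjusted p up to 0.135). Aa_G257660, at -1.96, was lost when replicate 2 or 3 of AB stage 3, replicate 3 of AB stage 4, replicate 1 of SAM stage 3 or replicate 3 of SAM stage 4 was left out, and with the compared libraries and the replicate block (adjusted p up to 0.0657). A test of the tissue by stage interaction over all 4 stages called 13 of the 22 genes, where 34.1% of all genes were called, and the lowest adjusted p was 7.50e-06 in Aa_G406280.

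The authors' deposited table holds their own calls for successive stages of 1 tissue. It called 0 Dof genes between stages 1 and 2 in AB, and 2 higher and 1 lower in SAM. Between stages 3 and 4 the authors' deposited table called 4 Dof genes higher and 10 lower in AB, and 4 higher and 1 lower in SAM. The share of all genes that the authors called was not computed, so these counts are not read as a result about the family. In edgeR 1.16% of all tested genes were called in AB and 7.57% in SAM between stages 1 and 2. Between stages 3 and 4 these shares were 47.3% and 9.18%.

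Genes of the photoperiod and clock pathway in which cycling Dof factors act were listed by name (40 matched, 34 tested). No gene matched GIGANTEA, so it is not among them. At stage 3, 7 of the 34 were called between the tissues, 6 higher and 1 lower in AB, a smaller share than the 44.2% of all genes. Aa_G356690, annotated with the CONSTANS locus and known in Arabidopsis as a target that cycling Dof factors repress, measured 18.9, 12.3 and 16.5 CPM in AB and 4.11, 2.46 and 4.30 in SAM. It was higher in AB by 2.13 ± 0.22 (adjusted p = 1.96e-07) at stage 3 and fell in AB by 1.90 ± 0.21 (adjusted p = 5.73e-07) from stage 3 to 4. The CONSTANS-like Aa_G227750 measured 123, 94.8 and 70.6 CPM in AB and 9.56, 13.5 and 2.48 in SAM, higher in AB by 3.46 ± 0.45 (adjusted p = 2.00e-05). Both had higher values in every AB library at stage 3, as had the CDF5 homologue. From stage 3 to 4, 16 of the 34 were called in AB, 3 higher and 13 lower, beside 3 in SAM, 1 higher and 2 lower. These shares are close to the 47.3% of all genes in AB and the 9.18% in SAM. In AB Aa_G227750 fell by 2.64 ± 0.42 (adjusted p = 0.000118), the FT-like Aa_G590080 by 2.56 ± 0.76 (adjusted p = 0.00820) and the CONSTANS-like Aa_G102200 by 2.08 ± 0.19 (adjusted p = 4.25e-08). Aa_G28730, the gene annotated with the FKF1 locus, measured 19.2, 11.2 and 17.1 CPM in AB and 19.1, 13.0 and 20.8 in SAM at stage 3, overlapping and not called. Of a further pair of FKF1 relatives, Aa_G307410 measured 47.4, 49.7 and 50.8 CPM in AB and 62.2, 66.4 and 65.2 in SAM at stage 3, lower in AB by 0.39 ± 0.08, and Aa_G190100 was not called at that stage.

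Libraries of 1 group differed in clock genes, and the labels give no hour of harvest. In AB at stage 1, replicates 1 and 2 measured 16.5 and 38.9 CPM for the morning gene LHY, 0.563 and 3.18 for its partner CCA1 and 1.06 and 13.1 for PRR9, a clock repressor of the morning. Among the Dof genes the same pair of libraries measured 2.96 and 18.0 CPM for Aa_G347580, 13.7 and 30.1 for Aa_G165610 and 2.39 and 4.94 for Aa_G13510, and 0 and 14 counts for Aa_G254970. These are the Dof genes that stood over 2-fold apart, and all were higher in replicate 2. Other genes were lower there, among them Aa_G366310 at 2.74 and 1.41 CPM, Aa_G2170 at 4.93 and 2.54 and Aa_G207600 at 5.28 and 3.25, and the clock genes TOC1 at 151 and 110 and PRR5 at 57.6 and 42.8. Of 18318 genes with at least 50 counts over both libraries, 2.09% differed by more than 2-fold. LHY also measured 13.0, 14.3 and 50.5 CPM in SAM at stage 1, with replicate 3 apart from the others. CCA1 measured 0.132, 4.74 and 5.72 CPM in AB and 0.389, 3.26 and 7.36 in SAM at stage 3, with replicate 1 the lowest in both, and 8.84, 19.2 and 6.11 and 8.96, 15.5 and 4.85 at stage 4. The part of this variation in the Dof differences was not tested.

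**Figure D5:**
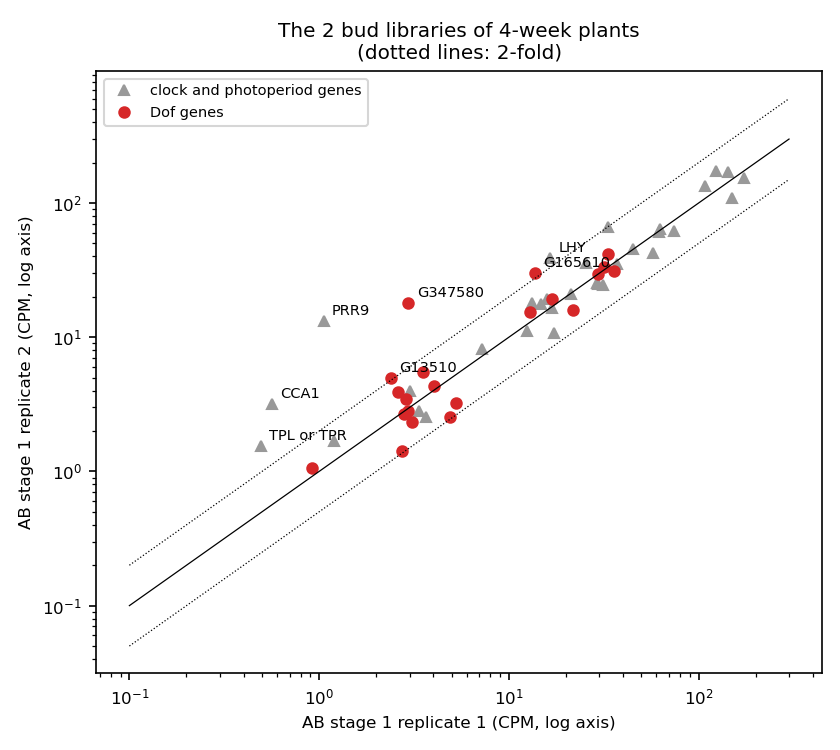
CPM in the 2 AB libraries of stage 1 (log axes), replicate 1 against replicate 2, for Dof genes (red circles) and clock and photoperiod genes (grey triangles) with counts in both; the solid line marks equality and dotted lines 2-fold. Aa_G347580 and PRR9 lie farthest above the dotted line, at 6.09-fold and 12.4-fold.

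Markers of the tissues in the samples were examined beside these results, where 32.8% of all genes were called at stage 1 and 44.2% at stage 3. At stage 1, 25 of 34 tested photosynthesis genes, which mark leaf tissue, were called between the tissues, 2 higher and 23 lower in AB, and their summed level was 8257 to 9692 CPM in AB against 12780 to 15480 in SAM, with 3 of the 38 listed genes at 0 in every library of either group. At stage 3, 13 of the 34 were called, all lower in AB, with sums of 8074 to 10670 CPM in AB and 9014 to 12550 in SAM. Of 7 meristem genes 2 were called at stage 3, 1 in each direction, with sums of 455 to 566 CPM in AB and 522 to 623 in SAM and none at 0 in every library. Of 14 tested phloem genes 6 were called at stage 3, 3 in each direction, with sums of 146 to 152 CPM in AB and 166 to 195 in SAM and 1 of the 15 listed at 0. Of 3 procambium and cambium genes 2 were called in AB from stage 3 to 4, 1 in each direction, where 47.3% of all genes were called. In SAM 1 of the 3 was called, higher, where 9.18% of all genes were called. The summed level of the 3 genes was 203 to 262 CPM in AB at stage 3 and 574 to 750 at stage 4, and in SAM 346 to 413 and 663 to 746, with none at 0. Of 7 shoot epidermis genes 2 were called at stage 3, both higher in AB, with sums of 2429 to 2960 CPM in AB and 1820 to 2396 in SAM. Of 4 tested stomatal lineage genes 2 were called at stage 3, both lower in AB, with sums of 119 to 135 CPM in AB and 149 to 165 in SAM. Of 2 class III homeodomain leucine zipper genes 1 was called at stage 3, lower in AB, with sums of 108.2 to 118.9 CPM in AB and 144.6 to 188.8 in SAM, and the 1 tested xylem gene was higher in AB at stage 3, with sums over both listed genes of at most 2.77 CPM. The part of these tissue markers in the Dof differences was not tested.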

How the data were processed

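The authors deposited 1 table of the series with raw read counts and TPM per gene and library, log2 fold changes and adjusted p-values of their own comparisons, and a gene annotation of the V5 assembly with names carried from version 4, per the file headers. FastQC is named in the submitters' processing notes; aligner and counter are not given in the sources used here. Another 46 columns with values by library were not used. Counts of 23 libraries entered edgeR 4.0.16 (R 4.3.3): TMM normalisation, filterByExpr (minimum count 10, total 15), 1 quasi-likelihood fit over 8 groups, 14 comparisons, and Benjamini-Hochberg adjustment over 21414 genes at 0.05. CPM values use the TMM library sizes. Errors are SE, unless named SD. Each SE was computed back from the test, as the size of the log2 difference over the square root of its F statistic. Alternatives were DESeq2 1.42.0, DESeq2's size factors, other filters, limma 3.58.1 on log2(TPM + pseudocount of 1 or 0.1), the compared libraries only, a replicate block, and leaving out each library. The replicates are labelled biological. Same-numbered AB and SAM libraries deviated together (every correlation over 0.1) at stage 2 (0.16 to 0.25) and stage 3 (0.13 to 0.19) and not at the other stages; this pairing comes from the data. The fit was tested on simulated counts.

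The Dof genes and the lists of related genes were chosen with earlier results of these data known, and the list matches were written after the files were seen. Every Dof gene is accounted for. Those with statistics are the 6 with the largest called change per comparison, the cycling Dof homologues and the 5 most abundant; others are given by value. Of related genes, up to 3 with the largest called change are named per comparison, and the FKF1 homologue and its relatives, LHY, CCA1, PRR9, TOC1 and PRR5 were added after their values were seen. The lists cover clock and photoperiod partners, photosynthesis, meristem, phloem, procambium and cambium, epidermis, stomatal lineage, class III homeodomain leucine zipper and xylem genes. No sequence is shown.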

Additional observations from a re-analysis of the deposited data

Results flagged for a closer look

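For 13 Dof genes the AB minus SAM difference was not the same at all 4 stages by the interaction test in edgeR. That test called 34.1% of all tested genes. The adjusted p was 7.50e-06 for Aa_G406280, 3.74e-05 for Aa_G13510, 0.000385 for Aa_G165610, 0.00105 for Aa_G186860, 0.00188 for Aa_G2170, 0.00201 for Aa_G67800, 0.00750 for Aa_G257660, 0.0151 for Aa_G277430, 0.0193 for Aa_G347580, 0.0354 for Aa_G166300, 0.0406 for Aa_G227500, 0.0442 for Aa_G180830 and 0.0470 for Aa_G234750. Among the alternatives run for the interaction, the call of Aa_G180830 was lost in 23 (adjusted p up to 0.123) and that of Aa_G234750 in 19 (adjusted p up to 0.122). Both were lost with the replicate block and on TPM. The first was lost without any single library except replicate 2 of AB stage 1, replicate 1 or 3 of AB stage 2, replicate 1 of AB stage 4, replicate 3 of SAM stage 1 and replicate 2 of SAM stage 2. The second was lost without any single library except replicate 1 of AB stages 1 and 3, replicate 3 of SAM stage 1, replicate 2 of SAM stage 2 and all of SAM stage 4. That of Aa_G227500 was lost in 10, when replicate 2 of AB stage 1 or 2, replicate 1 of AB stage 3, replicate 2 or 3 of AB stage 4, replicate 1 of any SAM group or replicate 3 of SAM stage 4 was left out (adjusted p up to 0.0825). That of Aa_G166300 was lost in 6, when replicate 2 of AB stage 1, replicate 1 or 2 of AB stage 4 or SAM stage 1, or replicate 2 of SAM stage 4 was left out (adjusted p up to 0.0902), and that of Aa_G347580 was lost without SAM stage 3 replicate 1 (adjusted p = 0.0559).

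The step from stage 2 to 3 differed between AB and SAM, by a test of the difference, by 2.72 in Aa_G257660, 1.75 in Aa_G165610 and 1.75 in Aa_G406280 on the log2 scale, each with the higher step in AB. That test called 4.66% of all tested genes. The step from stage 3 to 4 was lower in AB, by a difference of -5.33 in Aa_G13510, -4.28 in Aa_G406280, -2.99 in Aa_G347580, -2.62 in Aa_G186860, -2.40 in Aa_G2170, -1.96 in Aa_G165610, -1.96 in Aa_G257660, -1.90 in Aa_G166300, -1.35 in Aa_G67800 and -0.52 in Aa_G277430. It was higher in AB by 0.91 in Aa_G81430, 0.76 in Aa_G180830 and 0.45 in Aa_G109750. For the step from stage 3 to 4 the test called 29.8% of all tested genes. The value of Aa_G13510 rests on 4 counts in SAM at stage 3 and its interaction on 2 to 6 counts in SAM before stage 4, in a gene that reached the count filter in AB libraries only, so neither gives a size.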

How the results depend on the processing

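Of 134 calls of Dof genes over the 14 comparisons, 89 held in every alternative run for their comparison. In at least 1 alternative 45 were lost, among them 1 that turned its sign, while 30 differences that were not called passed in at least 1. The share of calls over all genes that held was not computed, so these counts describe the Dof calls only. No comparison met all 32 alternatives. A library was left out only for comparisons that use its group, and the compared libraries alone were fitted only for comparisons of fewer than 8 groups. The sign turned for Aa_G347580 at stage 1, from 1.34 to -0.49 without AB stage 1 replicate 2 (2.14 without replicate 1); the cause was not tested. Leaving out 1 library at a time gave 9 to 12 Dof genes called between the tissues at stage 1 (13 with all libraries), 10 to 12 at stage 2 (13), 12 to 16 at stage 3 (15), 4 to 8 at stage 4 (9) and 15 to 18 over the mean (17). It gave 0 to 2 in AB from stage 1 to 2 (0), 2 to 5 from 2 to 3 (5) and 13 to 15 from 3 to 4 (14). In SAM it gave 1 to 4 (2), 7 to 9 (11) and 2 to 7 (6) for the same steps. It gave 2 to 3 for the tissue difference in the step from stage 2 to 3 (3), 10 to 13 in that from 3 to 4 (13) and 9 to 15 for the interaction (13). Counts over all genes moved with the omitted library too, so these ranges are not read as a result about the family. Over all genes, the count at stage 4 was 744, against 1125 with DESeq2, 1465 with the compared libraries alone, 2317 with these and the block, 377 or 373 without AB replicate 1 or 2, and 446 or 383 without SAM replicate 2 or 3. In AB from stage 1 to 2 it was 249, against 398 with DESeq2, 140 with the compared libraries alone, 381 with these and the block, 418 on TPM with a pseudocount of 1, 29 without AB stage 1 replicate 1 and 57 without AB stage 2 replicate 1. In AB from stage 2 to 3 it was 4762, against 2758 with the compared libraries alone. In SAM from stage 1 to 2 it was 1620, against 872 with the compared libraries and the block, 554 or 613 without replicate 1 or 2 of stage 1, and 725 or 1072 without replicate 1 or 3 of stage 2. In SAM from stage 3 to 4 it was 1966, against 1052 or 1152 without replicate 1 or 2 of stage 3 and 1190 or 1098 without replicate 2 or 3 of stage 4. Between the tissues at stage 1 it was 7017, against 4347 without AB replicate 2. For the tissue difference in the step from stage 2 to 3 it was 997, against 1529 with DESeq2, 577 without AB stage 2 replicate 3, 563 without AB stage 3 replicate 1, 589 without SAM stage 2 replicate 1, and 574 or 631 without SAM stage 3 replicate 1 or 3. When limma was run on TPM (pseudocount 1), all genes divided into 4384 higher and 2224 lower in AB at stage 1 and 5416 and 3480 at stage 3. DESeq2 called 1 Dof gene in AB from stage 1 to 2 where edgeR called 0.

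With the replicate number as a block over all 23 libraries, 13 Dof genes were called at stage 2 and 15 at stage 3, as without it, and no call of a Dof gene changed there. Of all 21414 tested genes this block called 8012 at stage 2 and 9452 at stage 3. That block is 1 term per number common to all stages, so it does not model pairs of 1 stage. The compared libraries with the block do so at stages 2 and 3, where same-numbered libraries deviated together, and gave 13 and 15. That fit called 8511 of 20019 tested genes at stage 2 and 7710 of 19697 at stage 3. The labels do not say whether the numbers mark shared harvests. The block over all 23 libraries gave 12 at stage 1, 9 at stage 4 and 16 over the mean, where 6879, 798 and 11268 of all tested genes were called. It gave 0, 5 and 14 for the AB steps, 2, 10 and 7 for the SAM steps, 3 and 13 for the tissue differences and 11 for the interaction. Its counts over all genes were 252, 4763 and 10117 for the AB steps and 1660, 5198 and 2041 for the SAM steps. They were 1051 and 6346 for the tissue differences and 7214 for the interaction. For the tissue difference in the step from stage 2 to 3 the compared libraries with the block gave 4 (1074 of 20537 tested genes). There the AB and SAM libraries of the same number deviated together within each stage. The block used 1 term per number for both stages, so pairs within each stage were not modelled for this step. Stages 1 and 4, and the steps within a tissue, share only a number.

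The depth limited Aa_G13510 in SAM (2 to 6 counts per group before stage 4 cannot fix a fold change), Aa_G254970, Aa_G294420 and Aa_G297810. AB at stage 1 had 2 libraries.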
